A study of Corylus heterophylla with 6 samples.

Results

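Among the 3669 peaks called for the hazel auxin response factor ChARF3, 8 peaks at 7 genes were assigned to regulators of flowering, of the TCP family and of the AP2/ERF family. The genes were PLT2 at stage Ov1.1, FTIP3, FTIP7, TCP14 and 2 gene models annotated as ERF4 at stage Ov2.1, and LFY at stage Ov3.1. They were taken by gene and by peak position from the targets that the study names as bound, so that each member was chosen because a peak had been called at it. The values of the call are therefore given as a description, without a test, and none of them is evidence that these genes stand apart from other targets.

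ChIP-Seq was performed on ovules of Corylus heterophylla, with a polyclonal antibody raised against the N-terminal portion of ChARF3. At each of 3 stages there was 1 ChIP library and 1 input library of chromatin without antibody. In the labels, Ov1.1 is the stage at which ovules form, Ov2.1 that of their early growth and Ov3.1 that of their rapid growth. The ovules of a stage were pooled, and of those isolated the medium-sized ones were used. No genotype was altered and no treatment separated the stages, and the labels give wild germplasm as the plant material while the methods name a hybrid cultivar. The peaks were deposited as 1 list per stage, called from the ChIP and input alignments together, and the methods do not say how the inputs were paired with the ChIP libraries. The Ov1.1 list had 1412 peaks, the Ov2.1 list 1364 and the Ov3.1 list 893. With 1 ChIP library per stage there was no replicate, so no difference between stages was tested, and the absence of a gene from a list says that no peak passed there, not that nothing was bound.

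Auxin response factors bind auxin response elements in DNA and raise or lower the transcription of nearby genes. The hazel factors were numbered by chromosome position, so ChARF3 is not the counterpart of Arabidopsis ARF3, and the study groups it with the repressor class of the family. LFY is a plant-specific transcription factor that gives a floral meristem its identity. TCP factors adjust cell proliferation in growing organs, and AP2/ERF factors include both PLETHORA-type regulators of meristems and ethylene response factors. FT-interacting proteins carry C2 domains and transmembrane regions and act in the trafficking of other regulators. The study gives FTIP3 and FTIP7 the short name FT, but both are annotated as FT-interacting proteins, not as FLOWERING LOCUS T itself.

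Each peak carried a fold enrichment and a p-value from the peak caller. Under the formula given with the processing, these determine a whole number of ChIP fragments at the summit and the background that the call set against it. This number is the depth behind a peak. Its exact Poisson 95% interval covers counting error only, since amplified reads are not independent molecules and no second library exists. At Ov2.1, where 6 of the 8 member peaks lay, the median peak rested on 4 fragments, against 17 at Ov1.1 and 3 at Ov3.1. The lowest background of a list was 3.68 fragments in the Ov1.1 list, 0.195 in the Ov2.1 list and 0.102 in the Ov3.1 list, so fold enrichments of different stages are on different footings and each member is placed within its own list. Within a tolerance of 0.0005 fragments, the lowest value was shared by 357 Ov1.1, 307 Ov2.1 and 175 Ov3.1 peaks. It is therefore not read as an input level measured at each of those sites.

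PLT2 (Cor0106490.1), the hazel counterpart of an AP2-type factor that maintains the root stem cell niche in Arabidopsis, had the one member peak at Ov1.1. The peak lay on contig tig00007244 at 653770 to 654020, inside the gene and in the promoter class closest to the start site. It rested on 18 fragments (95% interval 10.7 to 28.4) over a background of 4.49, a fold enrichment of 3.46 and a q-value of 0.00143. Of the Ov1.1 peaks, 70.7% (exact Clopper-Pearson 95% interval 68.2 to 73.0) had a lower fold enrichment and 53.5% had fewer fragments, which puts PLT2 above the middle of its list but not near its top. The Clopper-Pearson interval, here and below, treats the peaks of the list as a sample. It leaves out the counting error of the placed peak, so it does not show how well a place is resolved. The peak was 251 bp wide, and 5.10% of the Ov1.1 peaks were narrower. At the same background, 4 fragments could be taken away before the p-value fell past the weakest one in the list. The median over the Ov1.1 list was 3. Because the backgrounds differ, this number is not compared with those of the other stages.

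FTIP3 (Cor0209610.1), whose Arabidopsis counterpart acts in the shoot apical meristem, was called at Ov2.1 on contig tig00002377 at 74943 to 75311. This 369 bp peak lay inside the gene, in the promoter class closest to the start site. It held 4 fragments (1.09 to 10.2) over 0.195, the lowest background of the Ov2.1 list, with a fold enrichment of 4.18 and a q-value of 0.00462. The same fold enrichment and p-value, to the last deposited digit, were carried by 85 other Ov2.1 peaks, so the FTIP3 peak cannot be ranked against them.

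FTIP7 (Cor0024610.1), annotated by its rice counterpart that acts in anther opening, had the widest member peak, 743 bp on contig tig00006985 at 4960119 to 4960861. Of the Ov2.1 peaks, 88.6% were narrower. It was placed in the outermost promoter class although it lay inside the gene, since that class counts distance on both sides of the start site. It held 5 fragments (1.62 to 11.7) over the same lowest background of 0.195, with a fold enrichment of 5.02 and a q-value of 0.000398, the smallest q-value of the 8 member peaks. Its values were shared by 32 other peaks of the list. The peaks of the FT-interacting proteins thus differed by 1 fragment, and that fragment moved the share of the list below them to 87.6% at FTIP7 (85.7 to 89.3), against 65.8% at FTIP3 (63.2 to 68.3). The Poisson intervals of their fragment numbers overlap, so the difference in place was not resolved.

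TCP14 (Cor0120020.1), a TCP factor that promotes cell proliferation in young internodes in Arabidopsis, had its peak upstream of the gene in the middle promoter class, on contig tig00006870 at 702642 to 703168. It held 6 fragments (2.20 to 13.1), more than any other member at Ov2.1, over a background of 0.382. This background was 1.95 times the lowest of the list, and 91.8% of the Ov2.1 peaks had a lower one. The fold enrichment was 5.07, with 90.2% (88.5 to 91.7) of the list below it, and the q-value was 0.000702. TCP14 therefore came first of the 6 Ov2.1 member peaks by fragments and by fold enrichment but after FTIP7 by q-value, because the background entered the measures differently.

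The 2 gene models annotated as ERF4, an ethylene response factor that represses transcription in Arabidopsis, differed in the evidence behind them. Cor0221350.1 had a pair of Ov2.1 peaks on contig tig00000191. The first, at 89673 to 89991, lay upstream in the outermost promoter class and held 4 fragments (1.09 to 10.2) over 0.218, with a fold enrichment of 4.10 and a q-value of 0.00516. The second, at 92537 to 92908, lay inside the gene in the promoter class closest to the start site and held 5 fragments (1.62 to 11.7) over 0.239, with a fold enrichment of 4.84 and a q-value of 0.000843. Edge to edge the peaks were 2546 bp apart, and together they spanned 3236 bp. The first was 319 bp wide, the narrowest width of the Ov2.1 list, which 8 peaks shared. Neither had the same values as any other peak. Below the first lay 63.6% of the list by fold enrichment (60.9 to 66.1), and below the second 85.0% (83.0 to 86.9).

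The other ERF4 model, Cor0108860.1, had a single Ov2.1 peak on contig tig00007145 at 618169 to 618496. It lay beyond the 3′ end of the gene and still fell in the promoter class closest to the start site, since that class is set by distance from the start site alone. It held 3 fragments (0.619 to 8.77), the smallest number in the Ov2.1 list and one shared by 513 of its peaks, over the lowest background of 0.195. The fold enrichment was 3.35 and the q-value 0.0309, and 171 other Ov2.1 peaks had the same fold enrichment and p-value to the last deposited digit. Of the list, 25.1% (22.8 to 27.5) had a lower fold enrichment.

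LFY (Cor0126310.1) had the one member peak at Ov3.1, on contig tig00006868 at 172970 to 173339. It was classed as distal intergenic, and its position relative to the gene was not available here. The other 7 peaks had a promoter class. The share of all peaks in each class was not computed, so this is not read as a trait of the members. It held 3 fragments (0.619 to 8.77), the smallest number in the Ov3.1 list and one shared by 530 of its peaks, over a background of 0.160, which was 1.57 times the lowest of that list. The fold enrichment was 3.45, the q-value 0.0176, and 23.9% (21.1 to 26.8) of the Ov3.1 peaks lay below it. LFY and the ERF4 model Cor0108860.1 were thus the members that stood in the lower part of their lists.

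**Figure D1:**
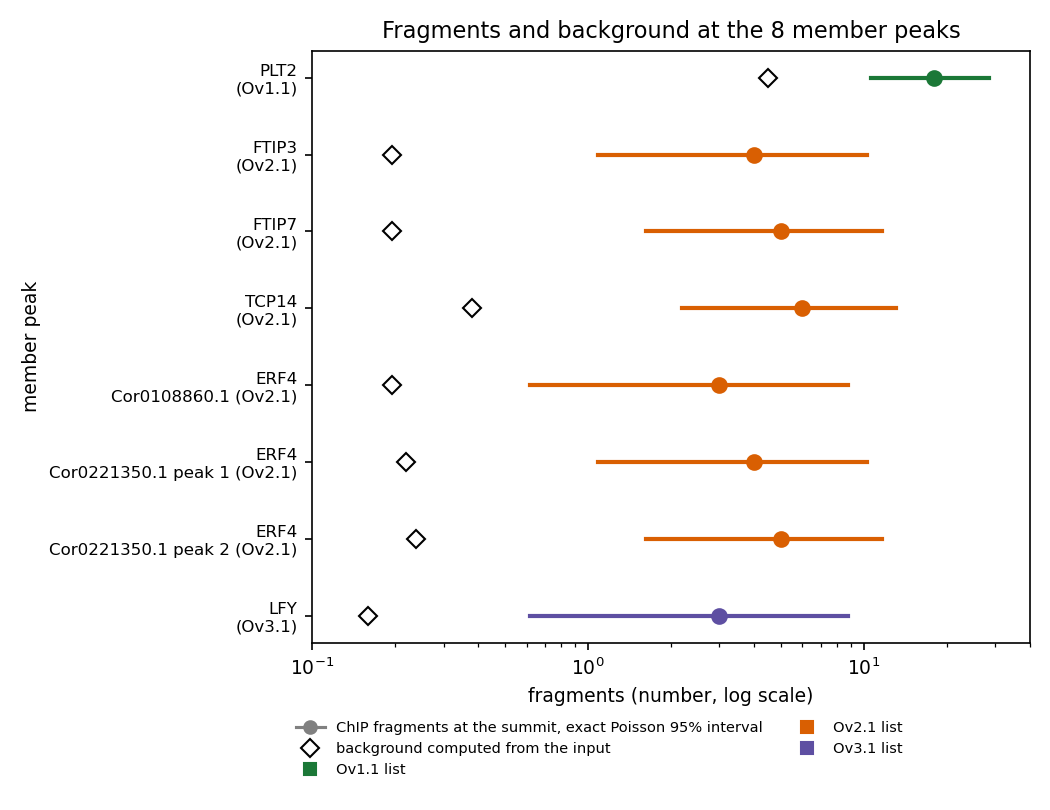
Number of ChIP fragments at the summit of each of the 8 member peaks (filled points, bars are exact Poisson 95% intervals, log axis) and the background of the call (open diamonds), coloured by stage. At FTIP3, FTIP7 and ERF4 Cor0108860.1 the background is the lowest value of the list, shared by many peaks, and not a level measured at the site. PLT2 had 18 fragments over 4.49, whereas the 7 later peaks had 3 to 6 fragments over 0.160 to 0.382, with intervals at Ov2.1 that overlap in all 15 pairs.

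The members can be ordered by the numbers above, but the counting error is wide. At Ov2.1 the intervals of the 6 member peaks overlapped in all 15 pairs, so that their order by fragments was not resolved at this depth. The plot of fragments shows each lower bound above the background of its peak. The call itself requires an excess over background, so this separation is part of how the members came to be listed.

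**Figure D2:**
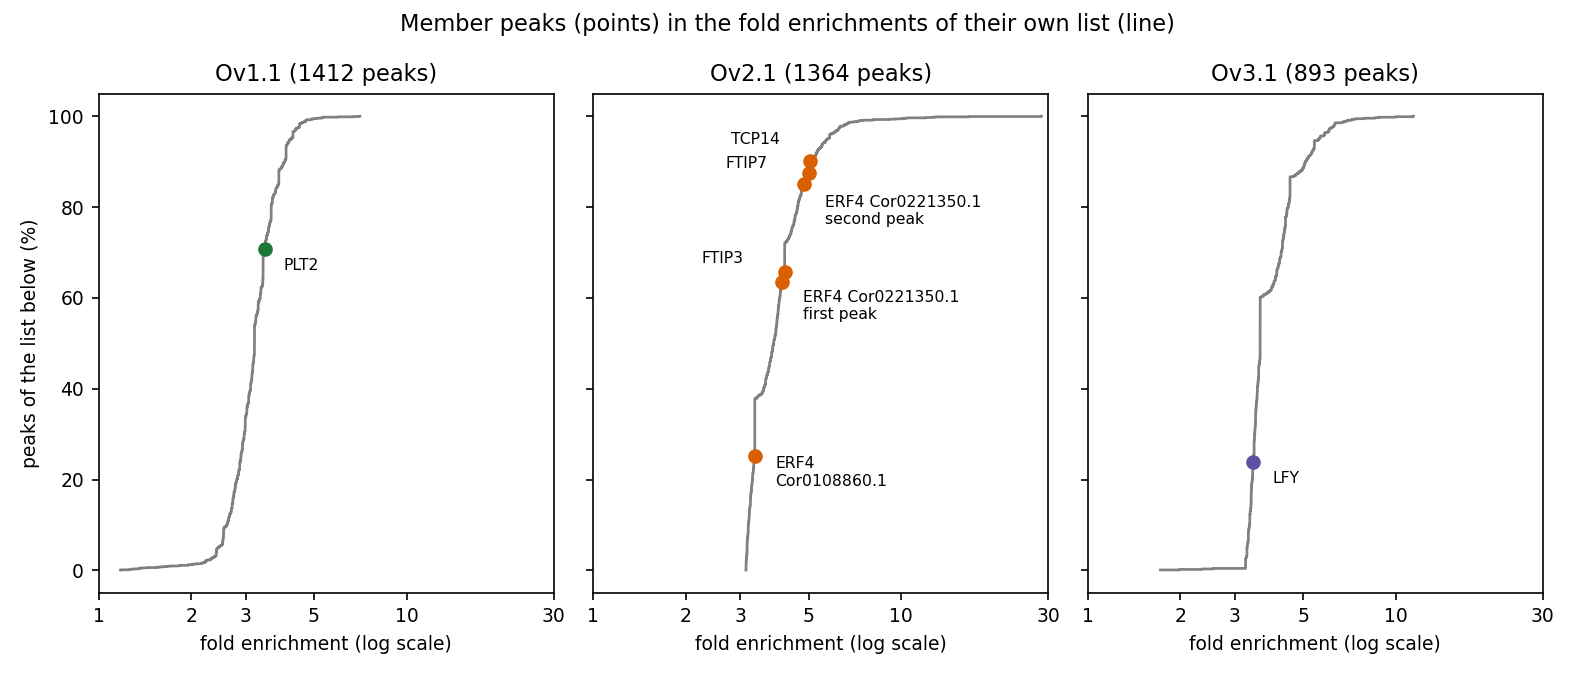
Cumulative distribution of the fold enrichment (log axis) over all peaks of the Ov1.1, Ov2.1 and Ov3.1 lists (grey line, share of peaks at or below a value) with the member peaks as points at the share of peaks below them. Vertical steps are peaks with tied values. TCP14, FTIP7 and the second peak of ERF4 Cor0221350.1 lie above 85.0% or more of the Ov2.1 list, and LFY above 23.9% of the Ov3.1 list.

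In fold enrichment, 6 of the 8 member peaks were above the median of their own list, and LFY and ERF4 Cor0108860.1 were below it. A q-value limit of 0.01, stricter than the limit of 0.05 used for the call, was passed by PLT2 at Ov1.1, where 66.0% of all peaks passed it. At Ov2.1 it was passed by 5 of 6 member peaks, all except ERF4 Cor0108860.1, where 45.4% of all peaks passed. LFY did not pass at Ov3.1, where 59.0% of all peaks did. With a limit of 0.001, 3 member peaks were left, FTIP7, TCP14 and the second peak of ERF4 Cor0221350.1, out of 6 at Ov2.1, where the share of all peaks was 15.1%. PLT2 did not pass that limit (27.5% of Ov1.1 peaks passed), nor did LFY (20.0% of Ov3.1 peaks passed).

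A fold enrichment of at least 4 was reached by 5 of the 6 Ov2.1 member peaks, against 41.6% of all Ov2.1 peaks. It was not reached by PLT2 at Ov1.1, where 10.1% of peaks reached it, nor by LFY at Ov3.1, where 37.1% did. These shares cannot be read as a property of the regulators, because the 8 peaks were selected after calling and number 6 at one stage and 1 at each of the others.

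The margin to the threshold follows from the same fragments and backgrounds, so it adds no separate evidence on the order of the members. For ERF4 Cor0108860.1 and LFY, 1 fragment fewer at the same background would have taken the p-value past the weakest one in the list. This lack of any fragment to spare was common at both stages, holding for 52.3% of the Ov2.1 peaks and 63.0% of the Ov3.1 peaks. At Ov1.1 it held for 8.71%, a share not compared with the others because the backgrounds differ. FTIP3 and the first peak of ERF4 Cor0221350.1 had 1 fragment to spare. FTIP7, TCP14 and the second peak of ERF4 Cor0221350.1 had 2.

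**Figure D3:**
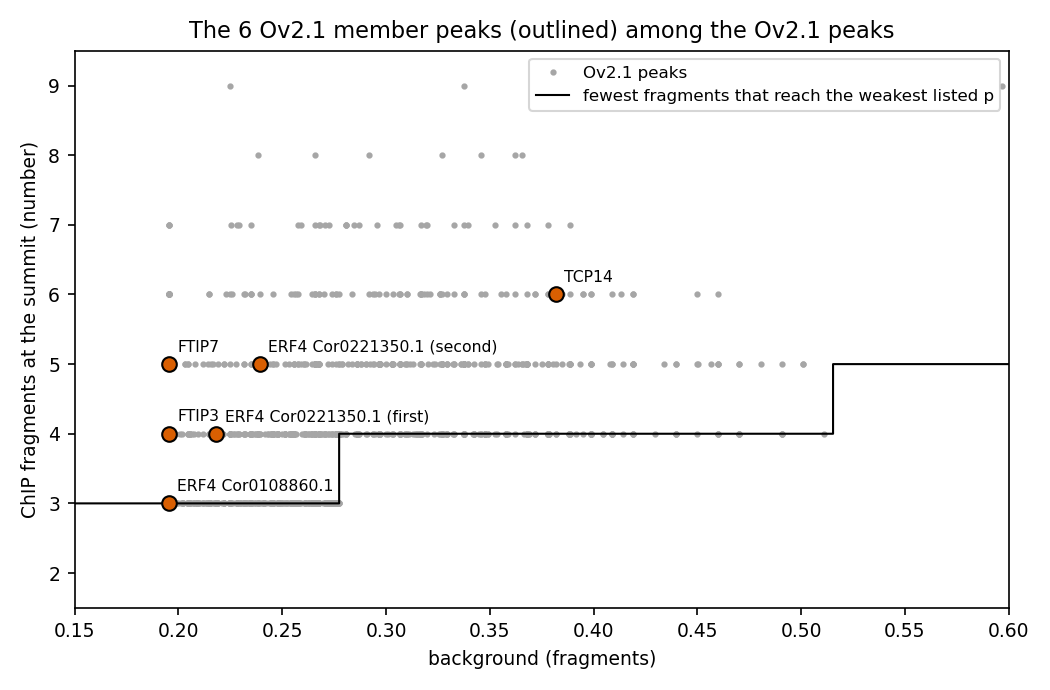
ChIP fragments at the summit against background (fragments) for the Ov2.1 peaks (grey points) with the 6 member peaks outlined; 17 peaks with more fragments or a higher background lie outside the axes. The black line is the fewest fragments that reach the weakest (highest) p-value of the list at a given background. ERF4 Cor0108860.1 lies on the line at 3 fragments, and TCP14 lies at 6 fragments over 0.382.

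Ties in the Ov2.1 list came from this narrow range of numbers. At the lowest background, counted as any background within 0.0005 fragments of it, which 22.5% of Ov2.1 peaks had, the fold enrichment could take only a few values, and 3 of the 6 Ov2.1 member peaks (FTIP3, FTIP7 and ERF4 Cor0108860.1) sat on them. PLT2 and LFY were not at the lowest background of their lists, which 25.3% of Ov1.1 peaks and 19.6% of Ov3.1 peaks had. With 3 fragments it was 3.35 after rounding at 174 peaks, ERF4 Cor0108860.1 among them. With 4 fragments it was 4.18 at 87 peaks, FTIP3 among them, and with 5 fragments 5.02 at 33 peaks, FTIP7 among them. These numbers can exceed those of peaks with fully identical values, given above, since the tolerance admits backgrounds that differ in the last digits. A further 10 peaks had 6 fragments and 3 had 7. The plot of fragments against background shows FTIP3, FTIP7 and ERF4 Cor0108860.1 stacked at this background, with the other Ov2.1 members to the right of it.

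In the RNA-Seq of the study, which was a separate experiment with its own stages and whose values were not used here, 6 of the 7 genes were given a direction of change. The RNA of PLT2 was given as higher at Ov2 than at Ov1. The RNA of FTIP3, FTIP7, TCP14 and ERF4 Cor0221350.1 was given as lower at Ov3 than at Ov2, and the RNA of LFY as lower at Ov4 than at Ov3. No direction was given for ERF4 Cor0108860.1. Set beside the peaks, the gene with the RNA increase had its peak at Ov1.1, and the 5 genes with a decrease had theirs at Ov2.1 or Ov3.1. The study drew its candidates from bound genes whose RNA moved against that of ChARF3, which it gives as falling from Ov1 to Ov2 and then rising to Ov4. For the genes with a direction, the match of stage and direction was therefore set by that choice and is not a finding. Peak and RNA were also not measured in the same samples, so the relation between them was not tested.

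None of the 8 member peaks was overlapped by a peak of another list. The share of all peaks with such an overlap was not computed, so this is not read as a trait of the members. No further peak of a member gene stood in the annotation held, which covers Ov1.1 and nearly all of Ov2.1, while most Ov3.1 peaks could not be assigned to a gene here. All peaks of the 3 lists within 50 kb, measured between nearest edges, were then collected. A neighbour of any list was found for 4 of the 6 Ov2.1 member peaks, where 67.4% of all Ov2.1 peaks had one. PLT2 had none at Ov1.1 (73.1% of all peaks had one), and LFY had none at Ov3.1 (69.2%). Within the same list the share was likewise 4 of 6 at Ov2.1, against 36.5% of all Ov2.1 peaks, and 2 of those 4 are the paired peaks of ERF4 Cor0221350.1, which count each other. PLT2 and LFY had no neighbour in their own lists either, where one was found for 45.6% of all peaks at Ov1.1 and 28.8% at Ov3.1. Within 10 kb, a neighbour of the same list was found for the paired ERF4 peaks and for no other member, so 2 of 6 at Ov2.1, against 9.46% of all Ov2.1 peaks. For PLT2 and LFY the shares of all peaks with a neighbour that close were 19.5% at Ov1.1 and 8.06% at Ov3.1. Counting every list, the same 2 of 6 Ov2.1 member peaks had a neighbour within 10 kb, against 23.0% of all Ov2.1 peaks, and PLT2 and LFY had none, against 31.8% of all peaks at Ov1.1 and 25.6% at Ov3.1. Within 100 kb all 8 member peaks had a neighbour, as did 89.3% of all peaks at Ov1.1, 86.6% of those at Ov2.1 and 88.4% of those at Ov3.1.

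**Figure D4:**
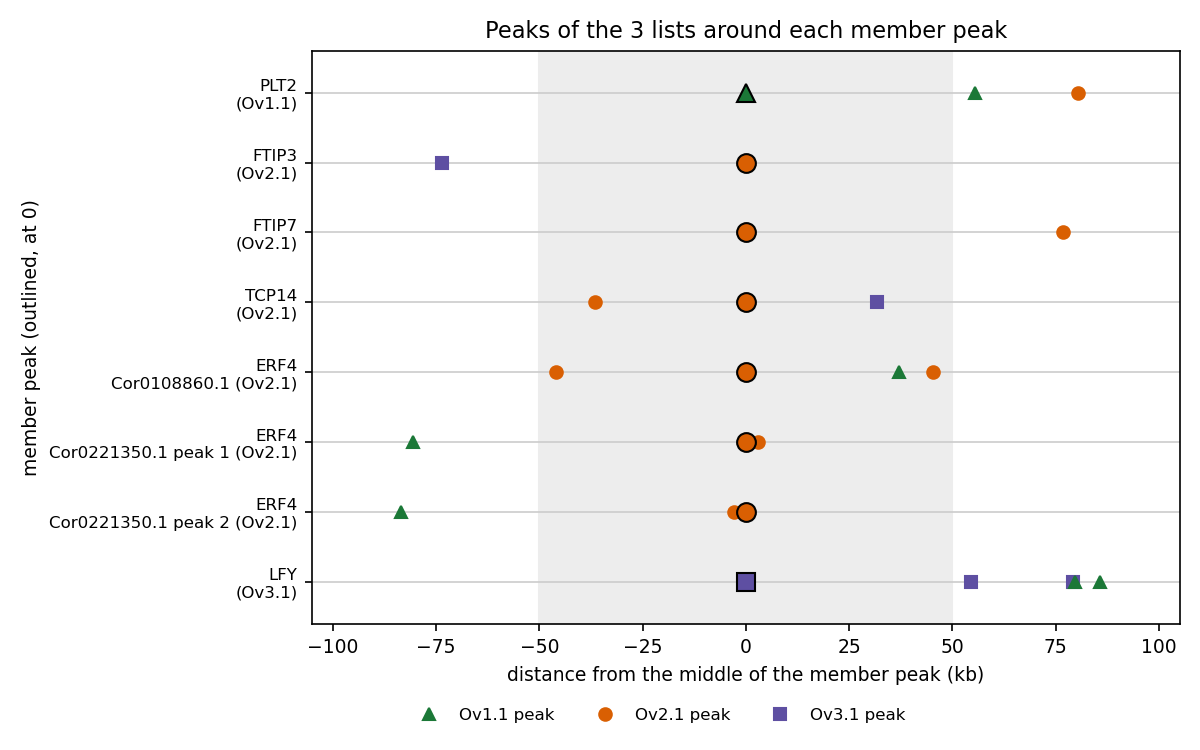
Peaks of the Ov1.1, Ov2.1 and Ov3.1 lists around each member peak (outlined, at 0), by distance in kb between peak middles; the grey band marks 50 kb on either side. Within the band lie 2 peaks at TCP14, 3 at ERF4 Cor0108860.1 and the paired peaks of ERF4 Cor0221350.1, and none at PLT2, FTIP3, FTIP7 or LFY.

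TCP14 had 2 neighbours. An Ov3.1 peak at 734325 to 734969, 31157 bp away, held 3 fragments over 0.188, a fold enrichment of 3.37. An Ov2.1 peak at 666115 to 666621, 36021 bp away on the other side, held 5 fragments over 0.362, a fold enrichment of 4.40, and was assigned to Cor0119960.1. Around TCP14, then, the peak at the gene had 1 fragment more than the Ov2.1 neighbour, and for the neighbour of the later stage the closest gene is not given here.

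ERF4 Cor0108860.1 had the most neighbours of the members. An Ov1.1 peak at 655005 to 655609, 36509 bp away, lay in an exon of Cor0108880.1 and held 18 fragments over 4.20, a fold enrichment of 3.65. Ov2.1 peaks lay at 663382 to 663779, 44886 bp away, and at 572016 to 572535, 45634 bp away. The nearer, in an exon of Cor0108890.1, held 4 fragments over 0.328, and the farther, in an intron of Cor0108840.1, held 5 over 0.238. Both had more fragments than the ERF4 peak between them, and the farther had a fold enrichment of 4.85, against 3.35 at ERF4 Cor0108860.1.

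A peak of another stage lay within 50 kb of TCP14 and of ERF4 Cor0108860.1, 2 of the 6 Ov2.1 member peaks, where 47.7% of all Ov2.1 peaks had one. PLT2 had none (50.9% of all Ov1.1 peaks had one), nor had LFY (56.6% of all Ov3.1 peaks). For PLT2 the nearest peaks were 55125 bp away in its own list and 80018 bp away in the Ov2.1 list. For LFY they were 54172 bp away in its own list and 79196 bp away in the Ov1.1 list. For both, only the peak of the same list lay just beyond the window, and the peak of another stage lay farther out. FTIP3 had the one Ov2.1 peak of its contig, with the nearest peak of another stage 72865 bp away at Ov3.1. FTIP7 lay on a contig with 24 Ov2.1 peaks, and the closest was 76156 bp away. The contig of ERF4 Cor0221350.1 held 2 peaks at Ov2.1, both of that gene, 1 at Ov1.1 and 0 at Ov3.1.

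The study names 5 further genes of the same families as bound: SOC1 in 2 gene models, a MADS-box integrator of flowering signals, TCP18, the counterpart of the Arabidopsis repressor of axillary bud growth BRC1, and the ethylene response factors ERF1A and ERF1B. They had 7 peaks, of which 3 were above the median fold enrichment of their list. The peak of SOC1 Cor0083230.1, at 3.21, was equal to the Ov1.1 median. A q-value limit of 0.01 was passed by 2 of 3 at Ov1.1, TCP18 and SOC1 Cor0152090.1, where 66.0% of all peaks passed, and by 1 of 4 at Ov2.1, SOC1 Cor0152090.1, where 45.4% passed. A fold enrichment of 4 was reached by 0 of 3 at Ov1.1, where 10.1% of all peaks reached it, and by 0 of 4 at Ov2.1, where 41.6% did. ERF1A, with 3 fragments over 0.195 at Ov2.1, had the same values as ERF4 Cor0108860.1. TCP18 and SOC1 Cor0152090.1 had peaks both at Ov1.1 and at Ov2.1, and these lay 55851 bp apart for TCP18 and 14466 bp apart for SOC1. Both sets were chosen by the study from its results and differ in their mix of stages, and no difference between them was tested.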

How the data were processed

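Peak lists of 3 ChIP libraries, 1 per stage, were analysed. Input libraries entered through the background. Per the study's methods, the authors cleaned reads (NGS QC Toolkit), mapped them to the hazel genome (Bowtie2) and called peaks from ChIP and input alignments together (MACS2, q-value limit 0.05), deposited as 1 list per stage. The release of these tools and of the genome is not given in the sources used here. Each deposited score is the whole part of 10 times −log10 q, up to 1000. The fold enrichment, as deposited, is the ChIP over the background as a linear ratio, and the deposited p-value and q-value are on the −log10 scale. The deposited start and end were used as given, on contigs.

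Fragments and background were solved so that (fragments + 1)/(background + 1) gave the fold enrichment and the Poisson probability of more fragments gave p, with a tolerance of 0.01 on −log10 p. All 3669 peaks were solved, and the solver was tested on simulated data. Annotation classes, closest genes and RNA directions were taken from the supplementary annotation of the study, in words. For Ov3.1 that annotation was held for the LFY peak and not for its neighbours.

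The genes named are the 7 members, the 5 other regulators of these families that the study names, and the gene closest to each neighbour peak. Members and lists were chosen with earlier results of these data known. No sequences or RNA values were used here. Computation used scipy 1.17.1, pandas 2.3.3 and numpy 2.4.6 under Python 3.11.15, and plots used matplotlib 3.10.9. Alternatives were the other Poisson tail, no pseudocount, ranking by q, stricter limits, other windows and the lists without contig tig00007282.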

Additional observations from a re-analysis of the deposited data

How the results depend on the processing

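No paired analysis was possible because each stage had 1 ChIP library. Whole fragment numbers were found for 8 member peaks with p as the probability of more fragments. They were found for 0 with the observed number counted into the tail, and for 1 (LFY) with no pseudocount. For LFY that solution was 14 fragments over 4.06, not the 3 over 0.160 given above. Its error on −log10 p was 0.00907, just inside the tolerance of 0.01. With the pseudocount the largest error of any Ov3.1 peak was 4.39e-05, so the number given above is the closer solution. The number of member peaks with a neighbour, 4 within 50 kb, was 2 within 10 kb, 8 within 100 kb (a distance at which 86.6% to 89.3% of all peaks had one), 4 between peak middles and 3 among peaks with a q-value of at most 0.01. The 6 member peaks left by a q-value of 0.01 became 3 at 0.001 and 5 at a fold enrichment of 4. Of the other regulators, 3 peaks were left at 0.01, 1 at 0.001 and 0 at a fold enrichment of 4, alternatives chosen after seeing the data. At 0.001 these were 1 of 3 at Ov1.1, where 27.5% of all peaks passed, and 0 of 4 at Ov2.1, where 15.1% did. The 6 members above the list median were also 6 when ranked by q and without contig tig00007282, and were 4 within lists limited to a q-value of 0.01, which removed weak peaks: FTIP3 then had 24.6% of the list below it and the first peak of ERF4 Cor0221350.1 had 19.7%. Depth, at 3 to 6 fragments a peak for 7 of the 8 members, limits every order given among them.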
